A study of Mus musculus with 36 samples.

Results

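Hif1a and 5 target genes of the hypoxia-inducible factor (HIF) that lie outside glycolysis, Egln1, Bnip3, Bnip3l, Car9 and Car12, were followed in mouse lung through hypoxia and the return to sea-level pressure. They were chosen by gene symbol, as the spots of the array whose platform annotation gives exactly 1 symbol and whose symbol is 1 of these. All 6 genes were measured, of 6971 genes with such spots. They had 10 spots of 15388 on the array: 3 for Bnip3l, 2 each for Hif1a and Egln1, and 1 each for Bnip3, Car9 and Car12. The spots of a gene are given apart as spots A, B and C and as their average on each array.

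Each array was a spotted cDNA array on which a whole-lung RNA pool from 5 BALB/c mice kept at 0.5 atm was hybridised together with a pool from 5 time-matched control mice, with Cy5 and Cy3 as the dyes. Hypoxia lasted 1, 3, 7, 14 or 21 days, and mice of the recovery phase had 21 days of hypoxia followed by 1, 3, 7 or 14 days at sea-level pressure, which are called days 22, 24, 28 and 35. There were 4 arrays at each of the 9 time points, 36 in all. Values are log2 ratios of hypoxic over control lung, so 0 means an equal signal and a negative value a weaker one in hypoxic lung. This direction is likely but not stated outright: the protocol lists hypoxic cDNA before control cDNA and Cy5 before Cy3, and records no dye swap. The labels do not tie the 4 arrays of a time point to separate mice, so a single-day p-value covers array-to-array spread, possibly technical, and not the spread between animals. In whole lung, fewer cells of a type and less RNA per cell cannot be told apart, and log ratios hold no levels with which to check the tissue by its markers.

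HIF is a transcription factor made of an oxygen-regulated alpha subunit, such as that encoded by Hif1a, and a constant beta subunit encoded by Arnt. In normal oxygen, prolyl hydroxylases, of which the product of Egln1 (PHD2) is the main one, mark the alpha subunit for capture by the VHL protein and degradation, so that HIF-1alpha is regulated largely as a protein rather than through its mRNA. Egln1 is itself a HIF target and closes a feedback loop. Bnip3 and Bnip3l (also called NIX) encode mitochondrial outer-membrane proteins that direct mitochondria to autophagy, and Bnip3l is needed for the removal of mitochondria from maturing red cells. Car9 and Car12 encode membrane-bound carbonic anhydrases that act outside the cell on carbon dioxide and bicarbonate and take part in pH control.

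HIF binds the short core ACGTG or GCGTG in hypoxia response elements, and the promoters of Bnip3, Egln1 and Car9 are shown because they are textbook HIF targets. The sequences are the 250 bases before the gene start in the RefSeq promoter table (GRCm38.p6), written 5′ to 3′ on the gene's strand, and capitals mark every match to ACGTG or GCGTG on either strand. Bnip3 lies on the minus strand (chr7:138909507-138909756), Egln1 on the minus strand (chr8:124949255-124949504) and Car9 on the plus strand (chr4:43506776-43507025).
Bnip3: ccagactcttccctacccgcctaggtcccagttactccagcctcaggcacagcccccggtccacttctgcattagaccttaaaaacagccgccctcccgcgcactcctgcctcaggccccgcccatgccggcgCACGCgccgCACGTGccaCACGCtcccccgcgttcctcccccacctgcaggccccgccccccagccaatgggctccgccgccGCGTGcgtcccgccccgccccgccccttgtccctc
Egln1: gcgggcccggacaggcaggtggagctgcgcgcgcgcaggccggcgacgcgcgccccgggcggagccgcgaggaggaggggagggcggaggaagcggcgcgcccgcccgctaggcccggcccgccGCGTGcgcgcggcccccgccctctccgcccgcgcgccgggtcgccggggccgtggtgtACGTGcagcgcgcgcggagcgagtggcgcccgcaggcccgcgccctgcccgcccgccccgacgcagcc
Car9: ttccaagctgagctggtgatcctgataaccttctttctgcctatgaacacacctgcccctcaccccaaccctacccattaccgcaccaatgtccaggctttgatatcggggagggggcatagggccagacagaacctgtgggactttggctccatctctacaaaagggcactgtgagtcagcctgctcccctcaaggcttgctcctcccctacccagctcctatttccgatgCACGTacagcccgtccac

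The Bnip3 window held 5 matches in 4 stretches, 2 of ACGTG and 3 of GCGTG. One stretch is the palindrome CACGTG, which counts as a match on both strands, and the matches began 117, 108, 107, 99 and 35 bases upstream of the start. Egln1 had 1 GCGTG 126 bases upstream and 1 ACGTG 68 bases upstream, and Car9 had 1 ACGTG on the other strand 18 bases upstream. Of 6 members, 5 had an entry in the table. The windows of Hif1a and Car12 lie before starts inside the RefSeq span of the gene, so their sequences are not shown. The Hif1a window held 3 matches, all of ACGTG, and the Car12 window held 0. Bnip3l was not matched to an entry. Of 32851 RefSeq promoter windows of the same 250 bases, 16.6 percent held ACGTG, 28.2 percent held GCGTG and 38.6 percent held either, so a match is common. A match here is a description of letters and not a bound site, and the deposited ratios carry no binding data.

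Over the 5 hypoxia days, Bnip3l was lower and Car9 was higher in hypoxic lung, and the other 4 genes did not pass the test. Passing means an adjusted p under 0.05 in limma, with the day as the unit and Benjamini-Hochberg adjustment over all 12159 features tested. The test sets the phase mean against 0. With no dye swap recorded, a steady dye difference and an effect of hypoxia cannot be told apart by it. Bnip3l averaged -0.32 ± 0.12 (SD of 5 day means), or 0.801 times the control, and Car9 averaged 0.24 ± 0.08, or 1.18 times. Thus 2 of 6 members passed, against 42.4 percent of all features in either direction, 24.7 percent higher and 17.7 percent lower, so the share of members was not above the background. The median of the 6 members was 0.02 and that of all features 0.03. Over the recovery days 0 of 6 members passed, against 4.77 percent of all features. An unadjusted p under 0.05 in limma was found for 1 member (Car9) and for 3637 of 12159 features. For the difference between phases 0 of 6 passed, against 0.0329 percent. Here 1 member (Bnip3l) had an unadjusted p under 0.05 in limma, as had 1843 of 12159 features.

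**Figure D1:**
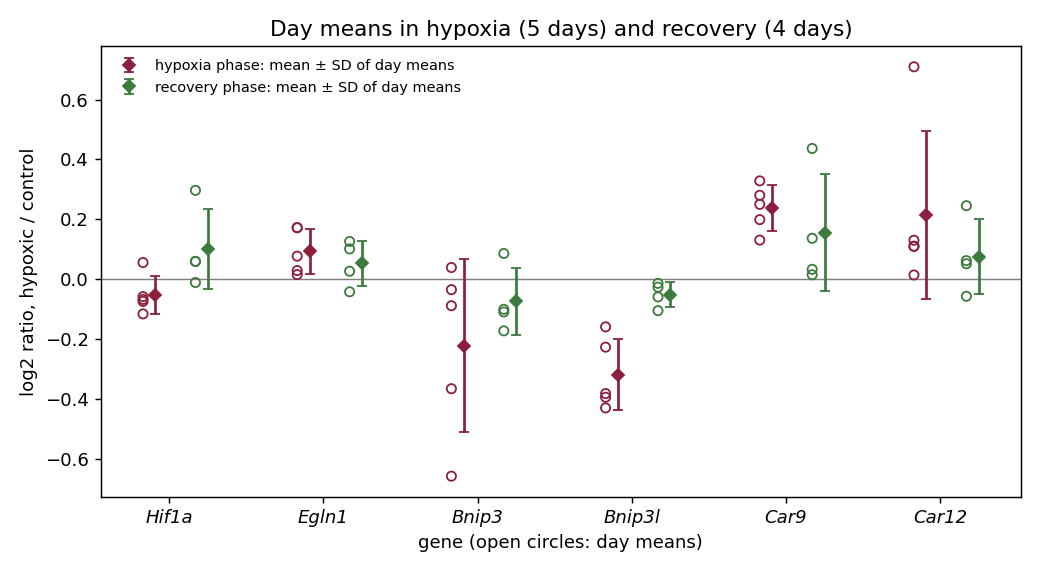
Day means of the log2 ratio (open circles, y axis) for each gene in the hypoxia phase (5 days) and the recovery phase (4 days), with diamonds and bars for the mean and SD of day means. The Bnip3l hypoxia days lie between -0.43 and -0.16, below all of its recovery days, while the Bnip3 and Car12 hypoxia days are the most widely spread.

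The arrays of a day fell into pairs, which touches every result given here. Replicates 1 and 2 resembled each other, as did 3 and 4, with a median Pearson r of 0.69 across features within such a pair and 0.29 across the pairs of a day (lowest -0.25). Means are therefore also given within replicates 1 and 2 and within replicates 3 and 4, and single-day results with that pair as a random block. Of 12015 features, 43.5 percent had hypoxia means of opposite sign in replicates 1 and 2 and in replicates 3 and 4. Among the members, Hif1a (-0.13 and 0.03), Egln1 (0.19 and -0.00078) and Car12 (-0.12 and 0.55) did so.

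**Figure D2:**
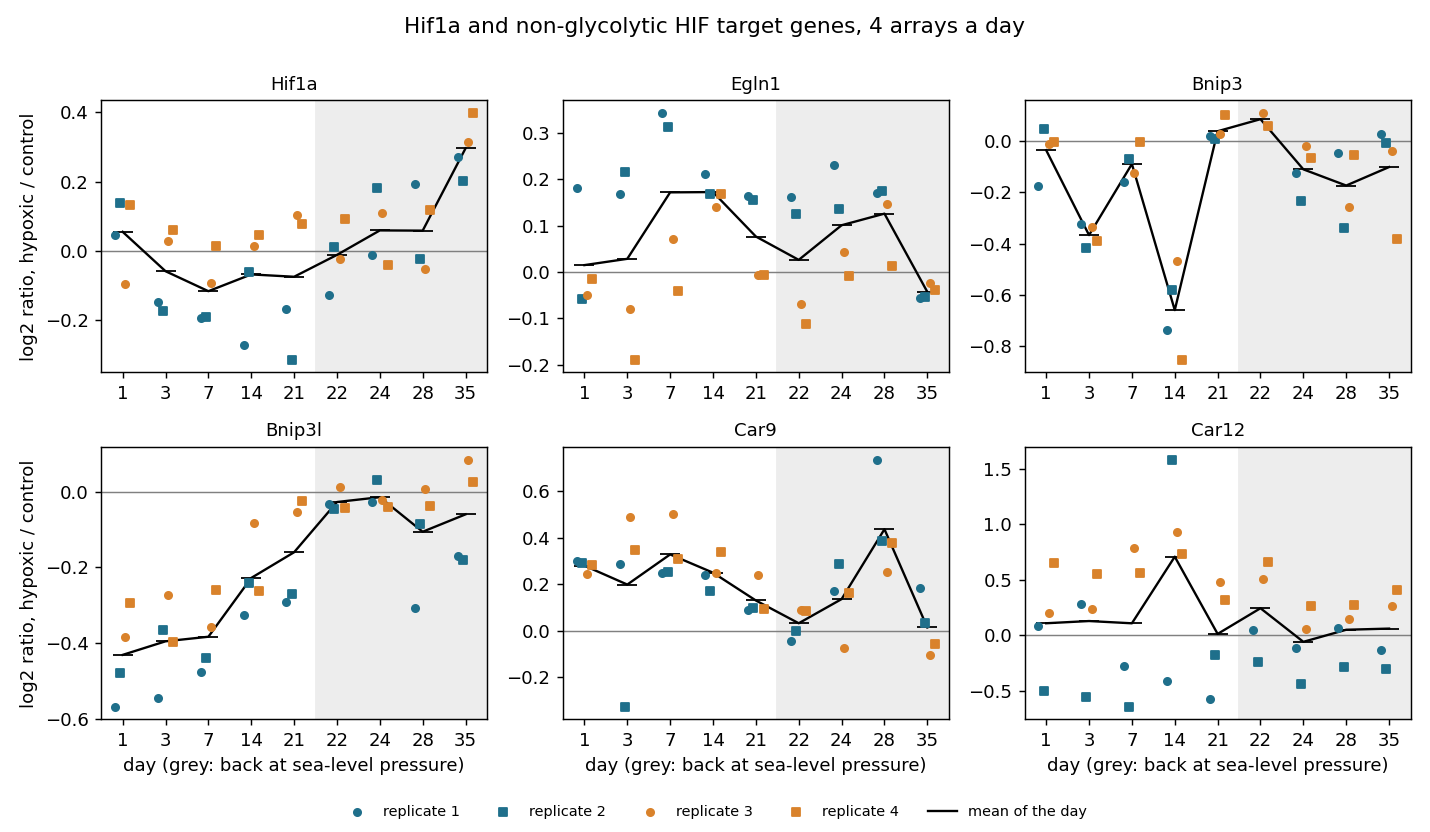
Log2 ratio (y axis) of each gene, averaged over its spots, on every array by day (x axis, days evenly spaced), with blue for replicates 1 and 2, orange for replicates 3 and 4, a line through the day means and grey for recovery. All 20 hypoxia arrays of Bnip3l lie below 0 and 19 of 20 of Car9 lie above it, whereas the colours of Car12 separate.

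Bnip3l, the mitophagy receptor, was lower at every hypoxia day, most at the first. At day 1 the 4 arrays read -0.57, -0.48, -0.38 and -0.29, and at day 3 they read -0.55, -0.37, -0.27 and -0.40. At day 7 the values were -0.48, -0.44, -0.36 and -0.26. All 12 of these arrays lie at or below -0.26 in the average of the 3 spots. Single spots had arrays nearer to 0 or above it, such as -0.07 at spot B on day 1 and 0.11 at spot C on day 3. At day 14 the arrays read -0.33, -0.24, -0.08 and -0.26, and at day 21 they read -0.29, -0.27, -0.05 and -0.02. The ratio was thus closer to 0 late in hypoxia in both pairs, with means of -0.28 in replicates 1 and 2 at both days and of -0.17 and -0.04 in replicates 3 and 4. After return to sea-level pressure the arrays read -0.03, -0.05, 0.01 and -0.04 at day 22, and -0.03, 0.03, -0.02 and -0.04 at day 24. They read -0.31, -0.09, 0.01 and -0.04 at day 28, and -0.17, -0.18, 0.08 and 0.03 at day 35. In the average of the spots, days 22 and 24 are close to 0 on all arrays, and the later ones are below 0 mainly in replicates 1 and 2. The single spots were wider apart at day 22. Spot A read -0.30, -0.19, 0.09 and 0.05, and spot C read 0.35, 0.17, -0.22 and -0.23.

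The Bnip3l mean of -0.32 over hypoxia had an SE of 0.05, a limma adjusted p of 0.00043 and a 95% interval of -0.42 to -0.22. On single days it passed at days 1, 3, 7 and 14 (adjusted p = 4.5e-06, 1.5e-05, 9.2e-06 and 0.0051), and with the pair as a random block as well (2.5e-04, 6.4e-04, 3.2e-04 and 0.037). Day 14 did not pass after scaling the arrays to a common spread (-0.18, 0.057), in replicates 3 and 4 alone (-0.17, 0.052), or at spots B (-0.22, 0.11) and C (-0.11, 0.43) on their own, and day 7 did not pass at spot C (-0.23, 0.051). At day 1, spots A, B and C on their own had limma adjusted p-values of 2.9e-04, 0.0042 and 0.011. Within replicates 1 and 2 the hypoxia mean was -0.40 and within replicates 3 and 4 it was -0.24. Over recovery it was -0.05 ± 0.04 (SD, 4 days; adjusted p = 0.51). The day means in order were -0.43, -0.40, -0.38, -0.23 and -0.16 in hypoxia, then -0.11, -0.06, -0.03 and -0.01 for days 28, 35, 22 and 24. The hypoxia and recovery day means did not overlap, as in 3.14 percent of all features in this direction, although days 21 and 28 differ by less than the SDs of their arrays. The difference between phases was -0.27 (SE 0.07; 95% interval -0.42 to -0.12), which failed the adjustment over all features (adjusted p = 0.12 in limma). Of all features, 4 passed that test. A slope on log2 day within hypoxia was 0.06 per doubling of time (adjusted p = 1.00 in limma), and 0 features passed for the slope, with 333 at an unadjusted p under 0.05.

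The 3 Bnip3l spots all averaged below 0 over hypoxia, by -0.42 at spot A (adjusted p = 2.3e-04), -0.32 at spot B (3.1e-04) and -0.22 at spot C (0.0033). Spots A and B were lower in replicates 1 and 2 (-0.60 and -0.51) than in replicates 3 and 4 (-0.24 and -0.13). Spot C went the other way, with -0.08 in replicates 1 and 2 and -0.35 in replicates 3 and 4. Over the 36 arrays spots A and B had an r of 0.92, whereas spot C had 0.09 with A and 0.04 with B. Over the 9 day means, which average the pairs out, the same values were 0.97, 0.94 and 0.97. The spots thus gave the same time course and differed in which arrays showed it. All points of these correlations share slides and controls, and they are given as descriptions.

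**Figure D3:**
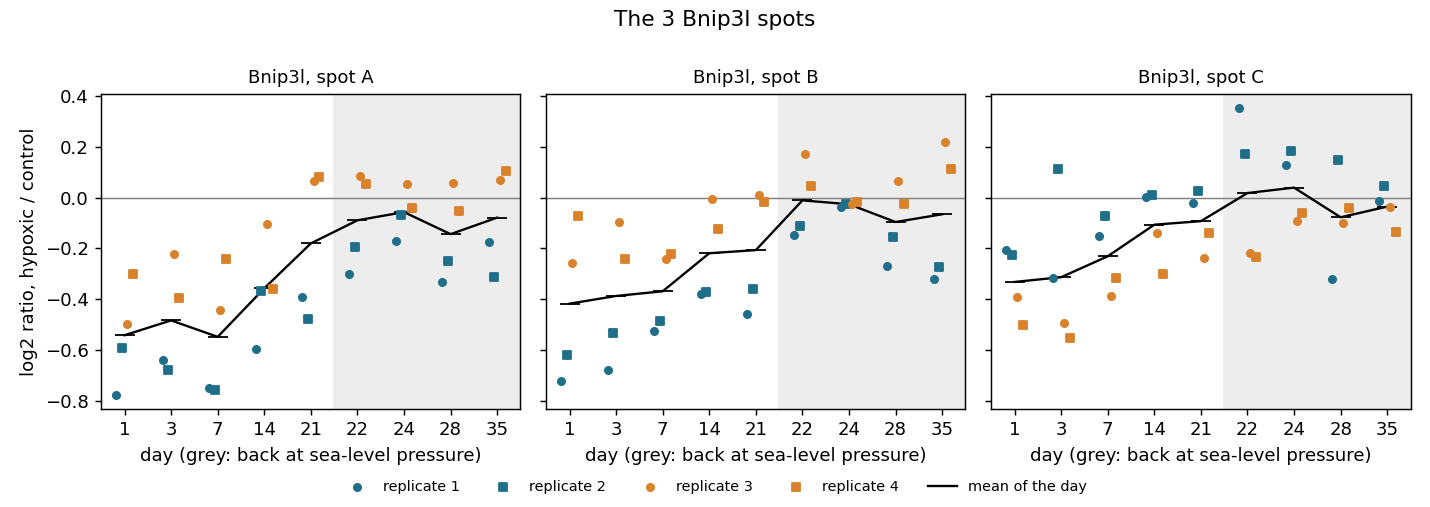
Log2 ratio (y axis) at each Bnip3l spot by day (x axis, days evenly spaced), with blue for replicates 1 and 2, orange for replicates 3 and 4 and a line through the day means. The lines of the 3 panels run alike (r of 0.94 to 0.97 over day means), while blue lies lowest at spots A and B and orange lies lowest at spot C.

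Bnip3, its relative and the more classical HIF target, had 1 spot and was low at days 3 and 14 but not at the days around them. At day 3 the arrays read -0.32, -0.42, -0.33 and -0.39, and at day 14 they read -0.74, -0.58, -0.47 and -0.85. All 8 values are below those of the neighbouring days. At day 1 the arrays read -0.18, 0.05, -0.01 and -0.00, at day 7 they read -0.16, -0.07, -0.13 and -0.00, and at day 21 they read 0.02, 0.01, 0.03 and 0.10. Days 3 and 14 passed in limma (-0.37, adjusted p = 1.0e-04, and -0.66, adjusted p = 4.5e-09), and with the pair as a random block the adjusted p-values were 0.0073 and 5.7e-06. A mean of -0.66 is 0.633 times the control, and it was the lowest day mean of the 6 genes. The pairs were close at both days (-0.37 and -0.36, then -0.66 and -0.66).

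The Bnip3 mean over hypoxia was -0.22 ± 0.29 (SD, 5 days; SE 0.08), with a limma adjusted p of 0.051 and a 95% interval of -0.41 to -0.04. The mean leans on the low days, since it was -0.11 without day 14 (adjusted p = 0.20) and -0.19 without day 3 (0.16). It passed without day 21 (-0.29, adjusted p = 0.023) and without day 1 (-0.27, 0.043). Leaving out replicate 2 gave -0.23 (0.045), and leaving out replicate 1 gave -0.20 (0.072). In recovery, Bnip3 had values on replicates 3 and 4 alone at day 22 (0.11 and 0.06), too few for a test. It read -0.12, -0.23, -0.02 and -0.07 at day 24, -0.04, -0.34, -0.26 and -0.06 at day 28, and 0.03, -0.01, -0.04 and -0.38 at day 35. All arrays of days 24 and 28 are below 0, and day 28 passed (-0.17, adjusted p = 0.037), though not with the pair as a block (0.20). Without replicate 1, 2 or 3 the day 28 adjusted p was 0.066, 0.27 and 0.20. The recovery mean was -0.07 ± 0.11 (SD, 4 days).

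Car9, the carbonic anhydrase most closely tied to HIF, was modestly higher throughout hypoxia. The arrays read 0.30, 0.29, 0.24 and 0.28 at day 1, and 0.29, -0.33, 0.49 and 0.35 at day 3. They read 0.25, 0.25, 0.50 and 0.31 at day 7, 0.24, 0.17, 0.25 and 0.34 at day 14, and 0.09, 0.10, 0.24 and 0.09 at day 21. The only hypoxia array below 0 was replicate 2 at day 3, and day 21 was the lowest day mean (0.13). In recovery the arrays read -0.04, -0.00, 0.09 and 0.08 at day 22, and 0.17, 0.29, -0.08 and 0.16 at day 24. They read 0.74, 0.38, 0.25 and 0.38 at day 28, and 0.18, 0.03, -0.10 and -0.06 at day 35. The highest day mean of Car9 was thus at day 28, 7 days after return to sea-level pressure, at 0.44 ± 0.21 (SD, 4 arrays; adjusted p = 1.3e-04).

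The Car9 mean over hypoxia was 0.24 (SE 0.06; adjusted p = 0.0062; 95% interval 0.11 to 0.36), with 0.17 in replicates 1 and 2 and 0.31 in replicates 3 and 4. In replicates 1 and 2 alone it did not pass (adjusted p = 0.11). Over recovery it was 0.15 ± 0.20 (SD, 4 days; adjusted p = 0.14), and the phases differed by 0.08 (adjusted p = 0.66; 95% interval -0.11 to 0.27). No difference between the phases was thus shown for Car9, and the interval leaves room for one in either direction. Days 1, 7 and 14 passed (adjusted p = 0.016, 0.0023 and 0.024), with the pair as a block day 7 alone of these (0.026, against 0.11 and 0.12). Day 1 did not pass without replicate 1 (0.072) or 4 (0.12), nor day 14 without replicate 1 (0.065), 3 (0.066) or 4 (0.16) or after scaling (0.067). Day 28 passed with the block too (0.0045). Day 3 passed without replicate 2 (0.37, adjusted p = 0.0022) and not with it (0.20, 0.085).

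Car12, the second of the membrane-bound pair, differed between the replicate pairs more than between days. At day 14 the arrays read -0.41, 1.58, 0.93 and 0.73, and the mean was 0.71 ± 0.83 (adjusted p = 0.023). Without replicate 2 it was 0.42 (adjusted p = 0.18), and the adjusted p was 0.14 without replicate 3, 0.084 without replicate 4, 0.098 after scaling and 0.11 with the pair as a block. That day mean therefore rests on single arrays. On the other hypoxia days the day means lay between 0.01 and 0.13. Over hypoxia Car12 averaged 0.21 ± 0.28 (SD, 5 days; adjusted p = 0.057; 95% interval 0.03 to 0.40). In replicates 3 and 4 the mean was 0.55 (adjusted p = 1.0e-04 when fitted alone), with every array above 0 on every day, and in replicates 1 and 2 it was -0.12. The Car12 hypoxia mean was 0.31 without replicate 2 (adjusted p = 0.0016) and 0.34 without replicate 1 (0.029). Without replicate 3 it was 0.11 (0.37), and without replicate 4 it was 0.10 (0.44). Leaving out day 14 gave 0.09 (0.19), and leaving out day 21 gave 0.26 (0.039). The split between the pairs held in recovery too, at 0.32 in replicates 3 and 4 and -0.17 in replicates 1 and 2. A direction for Car12 can thus be read in 1 pair of arrays and not in the other.

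Hif1a, the alpha subunit itself, moved little in hypoxia in the average of its 2 spots. The array averages of its 2 spots read 0.05, 0.14, -0.10 and 0.13 at day 1, -0.15, -0.17, 0.03 and 0.06 at day 3, and -0.19, -0.19, -0.09 and 0.01 at day 7. They read -0.27, -0.06, 0.02 and 0.05 at day 14, and -0.17, -0.32, 0.11 and 0.08 at day 21. Each hypoxia day holds arrays on both sides of 0. The hypoxia mean of -0.05 had a 95% interval of -0.16 to 0.05 (limma adjusted p = 0.40). This interval covers the spread between days of the average, and the spots alone averaged -0.16 and 0.05, about at its bounds. After 14 days back at sea-level pressure the arrays read 0.27, 0.20, 0.31 and 0.40, all above 0. Day 35 averaged 0.30 ± 0.08 (SD, 4 arrays) and passed (adjusted p = 0.0056), although not with the pair as a block (0.085), without replicate 3 (0.084) or without replicate 4 (0.11). At days 22, 24 and 28 the mean was -0.01, 0.06 and 0.06. The recovery mean was 0.10 ± 0.13 (adjusted p = 0.22), and hypoxia minus recovery was -0.15 (adjusted p = 0.33 in limma).

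The 2 Hif1a spots did not give the same ratio. Spot A averaged -0.16 ± 0.08 over hypoxia (adjusted p = 0.030), from -0.34 in replicates 1 and 2 and 0.03 in replicates 3 and 4. Spot B averaged 0.05 ± 0.06 (adjusted p = 0.38). In recovery spot B averaged 0.25 (adjusted p = 0.035) and spot A averaged -0.05. At day 35 spot B read 0.32, 0.45, 0.35 and 0.50, and spot A read 0.22, -0.05, 0.28 and 0.30. Both spots had their highest day mean there, 0.40 and 0.19. Their r was 0.16 over 35 arrays and 0.79 over 9 day means, so they shared part of the time course at different heights.

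Egln1, which encodes the oxygen-sensing hydroxylase PHD2 that marks the HIF-1alpha protein for destruction, gave a rise at 1 of its 2 spots. Spot A read 0.26, 0.49, 0.09 and -0.07 at day 3, 0.40, 0.60, 0.21 and 0.07 at day 7, and 0.41, 0.18, 0.43 and 0.35 at day 14. Over hypoxia spot A averaged 0.20 ± 0.13 (adjusted p = 0.0085), with 19 of 20 arrays above 0. Its day means were 0.06, 0.19, 0.32, 0.34 and 0.10 in hypoxia and -0.01, 0.14, 0.16 and -0.05 in recovery, so it was highest in the middle of the hypoxia phase. Spot B averaged -0.02 ± 0.07 (adjusted p = 0.75), and the spots had an r of 0.16 over arrays and -0.04 over day means. Which spot follows the Egln1 transcript was not tested.

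The Egln1 average over both spots was 0.09 ± 0.08 over hypoxia (adjusted p = 0.092; 95% interval 0.0023 to 0.18) and 0.05 over recovery (adjusted p = 0.46). The hypoxia average passed in replicates 1 and 2 alone (0.19, adjusted p = 0.023) and without replicate 4 (0.13, 0.041). It did not pass without replicate 1 (0.05, 0.35), 2 (0.07, 0.21) or 3 (0.12, 0.060). At day 14 the averages read 0.21, 0.17, 0.14 and 0.17, and at day 35 they read -0.06, -0.05, -0.02 and -0.04. These are the tightest sets of array averages for Egln1, on opposite sides of 0. The spots differed at day 14, with means of 0.34 at spot A and 0.0012 at spot B. Days 7 and 14 passed (0.17 at both, adjusted p = 0.039 and 0.048), and neither did with the pair as a block (0.11 and 0.13), after median centring (0.077 and 0.064) or after scaling (0.20 and 0.16). Neither passed without replicate 1, 2 or 3 (adjusted p of 0.27, 0.25 and 0.078 at day 7, and of 0.12, 0.12 and 0.14 at day 14), and day 14 did not pass without replicate 4 (0.093).

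**Figure D4:**
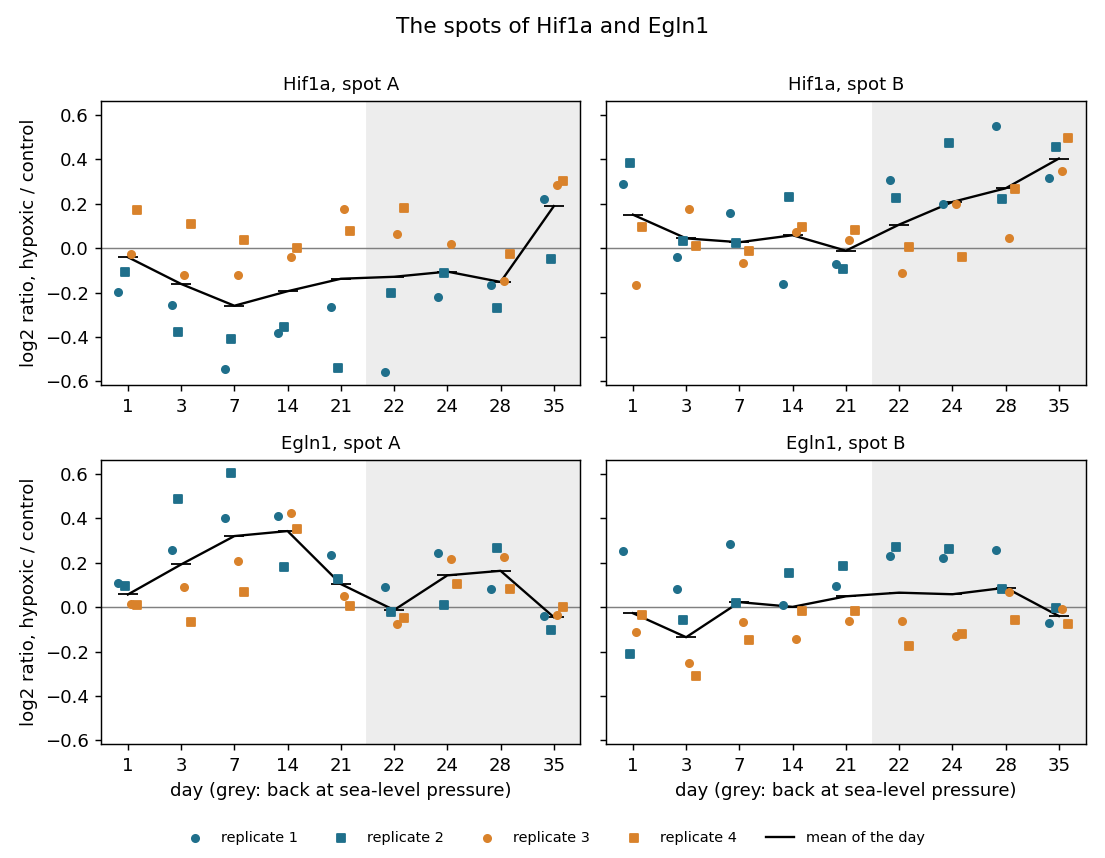
Log2 ratio (y axis) at the spots of Hif1a and Egln1 on every array by day (x axis, days evenly spaced), with blue for replicates 1 and 2, orange for replicates 3 and 4, a line through the day means and grey for recovery. Hif1a spot B and Egln1 spot A stand above 0 for most of recovery and of hypoxia respectively, and their partner spots do not.

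Counted by day, 15 of 53 member and day pairs passed in limma, and the share of all features is given beside each day. At day 1, 2 of 6 members passed, against 19.7 percent of all features (Bnip3l lower, Car9 higher). At day 3, 2 passed (Bnip3 and Bnip3l lower), against 23.3 percent. At day 7, 3 passed (Bnip3l lower, Car9 and Egln1 higher), against 36 percent. Day 14 had the most, 5 of 6 against 27.8 percent, with Bnip3 and Bnip3l lower and Car9, Car12 and Egln1 higher. Day 21 had 0 of 6 against 4.57 percent, with 1 member (Bnip3l) and 1847 of 12238 features at an unadjusted p under 0.05 in limma. Day 22 had 0 of 5 against 1.57 percent and day 24 had 0 of 6 against 2.93 percent. On both, 0 members had an unadjusted p under 0.05 in limma, against 1203 of 12242 and 1947 of 12274 features. Day 28 had 2 against 32.2 percent (Bnip3 lower, Car9 higher), and day 35 had 1 against 3.19 percent (Hif1a higher). With the replicate pair as a random block 8 pairs passed, which were Bnip3l at days 1, 3, 7 and 14, Bnip3 at days 3 and 14, and Car9 at days 7 and 28. Single-day calls over all features went from 18434 to 9976 with that block. Between day 22 and day 21 none of 5 members passed, against 0.611 percent of all features. None had an unadjusted p under 0.05 in limma, against 638 of 12117 features.

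Of 12 HIF regulators tested, 2 were higher, 4 lower and 6 did not pass over hypoxia, against 24.7 percent higher and 17.7 percent lower among all features, and the list median was -0.04 against 0.03 for all features. Vhl, which encodes the ubiquitin ligase subunit that captures hydroxylated HIF-1alpha, rose by 0.29 (adjusted p = 0.0015), and Siah2, a ligase that acts on prolyl hydroxylases, rose by 0.35 (0.0043). Arnt, the beta subunit that pairs with the Hif1a product, averaged -0.20 (0.0048), and Crebbp, a HIF coactivator, averaged -0.25 (0.0015). The largest falls were in Os9, at -0.44 (0.0074), and in Nfe2l2, the oxidative stress factor NRF2, at -0.52 (3.1e-04). Egln2 (0.14), Cul2 (0.03), Hsp90aa1 (0.01), Siah1a (-0.04), Rbx1 (-0.04) and Eloc (-0.06) did not pass. In recovery, 1 was higher and 2 lower, against 4.77 percent of all features in either direction. They were Siah2 (0.34, adjusted p = 0.049), Nfe2l2 (-0.30, 0.049) and Os9 (-0.56, 0.039).

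Other HIF targets outside glycolysis also went both ways, with 4 of 18 higher and 5 lower over hypoxia (24.7 percent and 17.7 percent of all features) and a median of 0.02. The higher ones were Cxcl12 (0.76, adjusted p = 2.2e-04), a chemokine, Kdm4b (0.30, 0.0025), a histone demethylase, P4ha2 (0.20, 0.036), a collagen prolyl hydroxylase subunit, and Mif (0.14, 0.017), a cytokine. The lower ones included Igfbp3 (-1.07, 3.1e-04), which binds insulin-like growth factors, Tfrc (-0.40, 2.8e-04), the transferrin receptor, Ets1 (-0.29, 0.020) and Cxcr4 (-0.21, 0.014), the receptor of Cxcl12. Tfrc, like Bnip3l, is prominent in maturing red cells, while of 5 measured red cell genes 2 were higher over hypoxia and 0 lower. A link of either gene to red cells was not tested. Over recovery, 1 of the 18 was higher and 2 lower, against 4.77 percent of all features in either direction.

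Around Bnip3 and Bnip3l, 3 of 17 mitophagy and autophagy genes were higher over hypoxia and 6 lower, against 24.7 percent and 17.7 percent of all features, with a median of -0.06. Fundc1, another mitophagy receptor of the outer membrane, averaged -0.28 (adjusted p = 5.3e-04), and Map1lc3b, the autophagosome protein to which such receptors bind, averaged -0.25 (0.0018). Mcl1 (-0.33, 0.0037) and Opa1 (-0.24, 0.0018), a survival factor and an inner-membrane fusion protein, were lower too. Pink1, the kinase of the receptor-independent route, was higher (0.32, 0.0034), as were Phb2 (0.29, 6.1e-04) and Atg12 (0.17, 0.0091). Over recovery 1 of the 17 was higher and 1 lower, against 4.77 percent of all features in either direction.

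Among carbonic anhydrases and acid or bicarbonate transporters, 3 of 10 were higher and 1 lower over hypoxia (24.7 percent and 17.7 percent of all features), with a median of 0.09. In recovery Car8 came closest to passing (-0.30, adjusted p = 0.061). Bsg, the chaperone of monocarboxylate transporters, rose by 0.34 (adjusted p = 0.0035), Car14, also membrane-bound, rose by 0.21 (0.015), and Car7 rose by 0.15 (0.0068). Car8, a related protein without the enzyme activity, averaged -0.58 (3.0e-04). Slc16a1 (0.14), Car1 (0.10), Slc4a2 (0.08), Slc4a1 (0.04), Slc16a3 (-0.06) and Car4 (-0.06) did not pass.

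**Figure D5:**
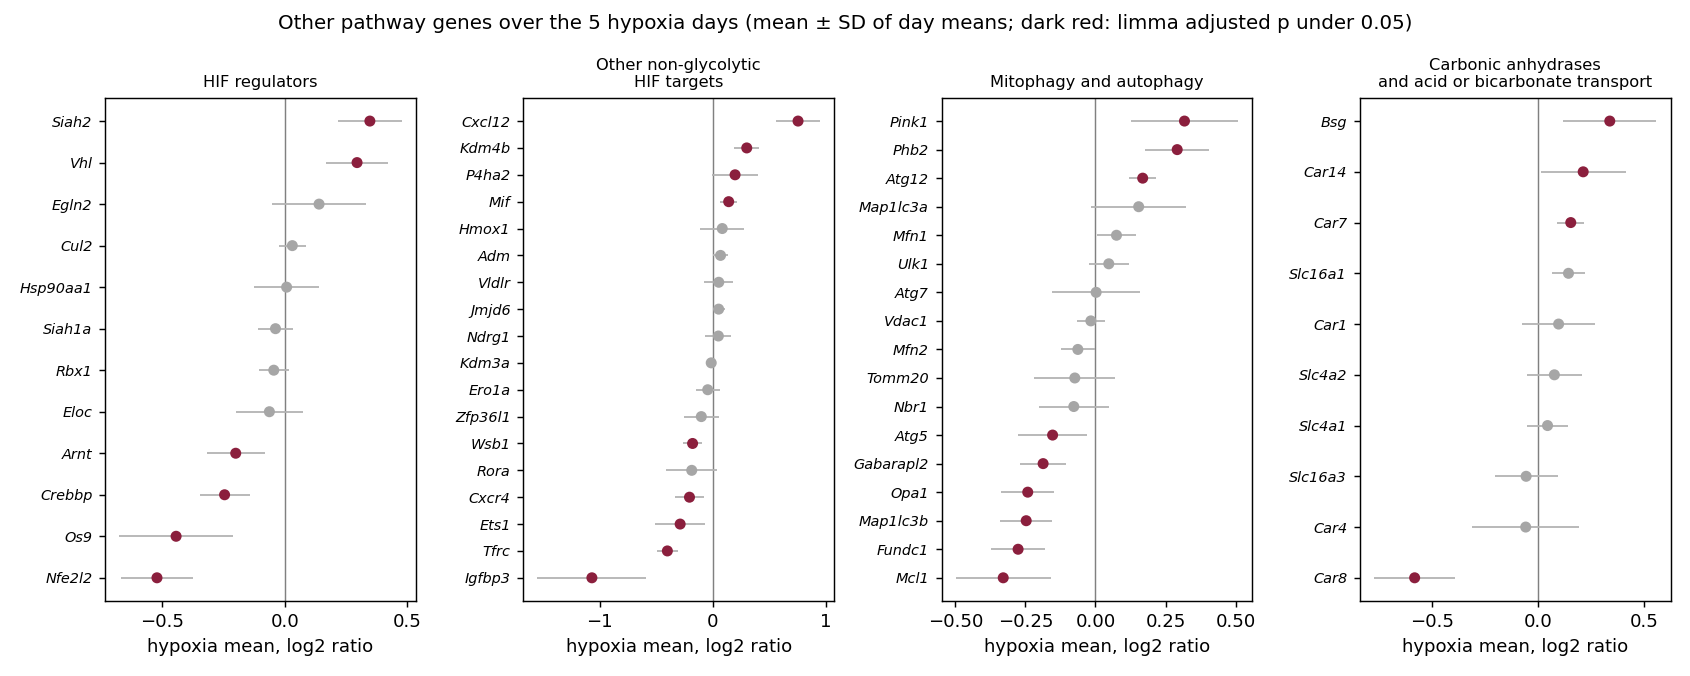
Hypoxia mean of the log2 ratio with its SD over 5 days (x axis, a separate scale in each panel) for the measured genes of 4 lists, with dark red for a limma adjusted p under 0.05. Each panel holds genes on both sides of 0, from Siah2 (0.35) to Nfe2l2 (-0.52) among the HIF regulators.

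Some markers of several lung cell types passed over the same hypoxia days as Bnip3l and Car9. Among all features 24.7 percent were higher and 17.7 percent lower, and the marker lists are short. Of 5 measured red cell genes 2 were higher (Hbb-b1 0.99, Alas2 0.63) and none lower, and the list median by day lay between 0.14 and 0.29 in hypoxia and between -0.28 and 0.26 in recovery. Of 4 macrophage genes 3 were lower, with daily medians of -0.49 to -0.27 in hypoxia and -0.32 to 0.03 in recovery. Both airway genes were lower, 2 of 3 endothelial genes were higher, 3 of 6 alveolar genes were higher and 1 lower, and 1 of 3 neutrophil genes was higher and 1 lower. The part of these cell types in the ratios of the 6 genes was not tested.

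The genes whose ratios ran most like those of each member were taken as the 3 highest Pearson r over the arrays among 6525 genes (6469 for Bnip3). For Bnip3l they were Prkch (r = 0.87), Nfia (0.85) and Tax1bp1 (0.83), over 36 arrays. For Bnip3 they were F3 (0.84, 33 arrays), Fkbp5 (0.77) and Ms4a6d (0.77, both over 34 arrays). For Car9 they were Setd7 (0.89), Taf1 (0.89) and Adam15 (0.88, 35 arrays), and for Car12 they were Syne4 (0.91), Prmt3 (0.91) and Psg22 (0.90). Hif1a was closest to Foxn2 (0.82), Srsf10 (0.76) and Hnrnpa2b1 (0.76), and Egln1 to Mapk1ip1 (0.85), Arhgap35 (0.79) and Wdr6 (0.79). No member was among the 3 closest genes of another member. The points share slides, pools and the split into replicate pairs, so these values describe the arrays and carry no p.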

How the data were processed

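Per the labels' protocols, the authors scanned the slides with a GenePix scanner 4000A, read them with GenePix Pro 4.0, corrected background, removed flagged spots and deposited log2 ratios of median intensities normalised by lowess. These log2 values were used as deposited, and removed spots stayed empty. Array medians lay between -0.02 and 0.05. Channel intensities were not used here. Gene symbols came from the platform annotation, and the spots of a gene were averaged.

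Tests used limma 3.58.1 in R 4.3.3 (lmFit, eBayes) with Benjamini-Hochberg adjustment over all features. The phases were fitted on 9 day means (at least 2 arrays at each day), and single days on 36 arrays (at least 3 of 4). The fits were also run on simulated data with independent arrays. Those data lacked the replicate pairs, so they cannot show how the fits behave with them. The members and lists were chosen with earlier results of these data known. Named were the 6 members, all measured genes of lists of up to 12, in longer lists up to 4 past the threshold in each direction and up to 2 with the lowest p, and the 3 genes most alike. Cited2 had a spot but too few arrays. Alternatives covered centring, scaling, missing values, spots, replicates, days and blocks. Promoters came from RefSeq (GRCm38.p6).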

Additional observations from a re-analysis of the deposited data

Results flagged for a closer look

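Of 115 sets of 4 arrays checked, 3 had 1 array far from the others. Chance alone gives about 1 in 20 such sets when the 4 values are independent and normal. The arrays of a day fell into pairs, and averages were checked beside their spots, so that rate need not hold here. Bnip3 at day 35 had its lowest array at -0.38, against 0.03, -0.01 and -0.04 on the others. Car9 at day 21 had its highest array at 0.24, with 0.09, 0.10 and 0.09 on the rest. The Egln1 average at day 28 had its lowest array at 0.0119, with 0.15 to 0.17 on the others.

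In 7 pairs of days a member lay on opposite sides of 0 on every array, and these differences were not tested. Such pairs were not counted for other features, so the 7 have no background to be set against. Bnip3 at day 21 was above 0 on 4 of 4 arrays and below 0 on all arrays of days 3, 7, 14, 24 and 28. Day 3 minus day 21 was -0.40, day 7 minus day 21 was -0.13 and day 14 minus day 21 was -0.70. Day 21 minus day 24 was 0.15 and day 21 minus day 28 was 0.21. In the average of its spots, Egln1 at day 35 was below 0 on all arrays, and day 14 minus day 35 was 0.21 and day 28 minus day 35 was 0.17. Spot B alone had arrays on both sides of 0 at days 14 and 28.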

How the results depend on the processing

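The hypoxia calls of Bnip3l held in all 25 alternatives run for it, with means of -0.42 to -0.22, and that of Car9 in all but replicates 1 and 2 alone. Of 1464 member values under alternatives, 1370 kept their side of the threshold and their direction where called, 50 lost a call, 44 gained one and 0 reversed. In 72 of those kept, the sign changed with neither value called. The number of members that passed over hypoxia, 2 as reported, became 4 with each spot on its own, 4 without day 21, 4 with 36 arrays as the unit and 5 with the replicate block, and 2 to 4 with 1 replicate left out. With each spot on its own, a gene counted if any 1 of its spots passed. Calls over all features, 5152 as reported, were 4909 without day 21, 6238 with 36 arrays and 6904 with the replicate block. Over recovery the number of members went from 0 to 1 with each spot on its own, 1 in replicates 3 and 4 alone, and 2 with 36 arrays and with the replicate block. Calls over all features there were 580 as reported and 1609 in replicates 3 and 4 alone. For the phase difference the number of members went from 0 to 3 with 36 arrays and with the replicate block. For the trend it went to 1 with the replicate block, where 437 features passed against 0 as reported. Single-day calls, 15 as reported, fell to 7 in replicates 1 and 2 alone and to 8 with the random pair block, and were 9 to 12 with 1 replicate left out. Across days, deviations from the day means had a median r of 0.38 between arrays of the same number (lowest -0.12), 0.39 with the other number of the same pair and -0.39 across the pairs, so arrays were tied across days by pair rather than by number. The random block was by pair within a day and does not model that tie.

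Over all features, 580 calls over recovery became 3117 after scaling to a common spread, 4069 with 36 arrays, 5126 with the replicate block, and 13, 12, 0 and 2 without day 3, 22, 24 and 28, and 4 calls for the difference became 2045 and 2931 with 36 arrays and with the replicate block. Single-day calls went from 18434 to 9976 with the random pair block, to 16821 in replicates 1 and 2 alone and to 12808 to 15416 with 1 replicate left out. The causes were not tested. Bnip3 could not be tested with at least 3 arrays at each day, in replicates 1 and 2 alone, or without replicate 3 or 4, since day 22 lacks replicates 1 and 2. The signal over background was not used here, and 4 arrays a day limit the precision.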
